A study of Mus musculus with 6 samples.

Results

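Respiratory complex I genes were examined as the rows of the expression table whose mouse gene symbol starts with Nduf. The 42 genes described here are 34 subunit genes and 8 genes of assembly factors, whose symbols start with Ndufaf. They are 42 of 16492 gene probe sets, and all 42 passed the filter on dim signal and are among the 11544 probe sets tested. A further 11 genes had no row, of which 5 are pseudogenes and 6 are protein-coding (Ndufab1, Ndufb1, Ndufb4, Ndufb4b, Ndufb4c and Ndufs3), and these were not analysed here. The symbol takes in Ndufa4, which was first counted with complex I and was later found with cytochrome c oxidase, and its relative Ndufa4l2, so these were kept apart from the subunits of the 2 arms of the enzyme.

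Complex I, NADH:ubiquinone oxidoreductase, is the largest enzyme of the respiratory chain in the mitochondrial inner membrane. Its peripheral arm, which reaches into the matrix, takes electrons from NADH and passes them through flavin and iron-sulphur clusters to ubiquinone, and its membrane arm pumps protons. The core subunits carry out catalysis and are encoded partly by nuclear and partly by mitochondrial DNA. The accessory subunits surround them, and the assembly factors help to build the enzyme without staying in it. Oxidative muscle fibres are rich in mitochondria and depend on this enzyme for ATP.

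The quadriceps, a thigh muscle, was sampled from 3 mice heterozygous for nebulin (nebulin +/-, a single allele) and from 3 wild-type mice (nebulin +/+, both alleles), 1 array and 1 animal each, and none of the mice was treated. Neb encodes nebulin, a very long protein along the thin filament, and its mutations cause nemaline myopathy; the comparison asks how muscle transcripts differ when 1 copy is lost. The labels state neither strain nor age, nor how the allele was disrupted. All values are log2 array signals, and differences are heterozygous minus wild type from a limma fit over all 11544 probe sets, with Benjamini-Hochberg adjustment over all of them and a threshold of 0.05.

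Neb itself measured 12.08, 11.73 and 11.94 in heterozygous mice, against 12.17, 12.09 and 12.16 in wild-type mice. Its log2 difference was -0.22 ± 0.08 (SE, n = 3 each; limma, adjusted p = 0.161), and where its probes lie relative to the disrupted part of the gene is not given, so it does not check the labels. Without heterozygous mouse 1 it was -0.31 and passed (adjusted p = 0.0399). The 5 skeletal muscle markers (Acta1, Ckm, Tnnt3, Mylpf and Myh4) had mean signals of 13.30 to 14.81, among the brightest on the arrays. None of the 5 passed. Acta1 and Mylpf each held 1 identical value in all 6 mice, Tnnt3 had equal group means, and Ckm differed by 0.0022. Myh4 differed by -0.26 (limma, adjusted p = 0.281). Slow fibre transcripts moved with genotype, and 6 of 7 tested markers passed higher (limma). All 7 passed with the replicate block, which takes the mouse number as a block. Atp2a2 had an adjusted p of 0.0127 with it and 0.0625 without it. With a mouse left out, Tnnt1, Tnni1, Tnnc1, Myh7 and Myl3 passed each time, Myl2 in 2 of 6 fits and Atp2a2 in 0. The mean level of the 7 was 11.47 to 11.84 in heterozygous mice and 9.41 to 10.13 in wild-type mice. Their part in the complex I values was not tested, and in whole muscle a different share of fibres of a type and a different amount of RNA per fibre cannot be told apart. Markers of endothelium, leukocytes, adipocytes and fibroblasts gave 1 lower call, Egfl7, among 18 tested. With the replicate block there were 3 lower calls, Egfl7, Kdr and Fabp4 (limma, adjusted p = 0.0222, 0.0174 and 0.0364); Kdr and Fabp4 had 0.0575 and 0.0676 without it. Without heterozygous mouse 1 Egfl7 and Kdr passed lower and Lep higher, and with any of the other mice left out none passed. The single tested markers of red cells (Alas2) and cardiac muscle (Nppa) did not pass.

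None of the 42 complex I genes rose or fell at an adjusted p of 0.05 (limma), and 5 had an unadjusted p under 0.05. Over all tested probe sets 3.11% passed the adjusted threshold (1.53% higher and 1.58% lower), and 20.5% had an unadjusted p under 0.05, against 11.9% of the complex I genes. With the replicate block, 2 of 42 passed, Ndufs4 lower and Ndufaf8 higher, against a background of 4.95%. The differences of the 42 genes ran from -0.20 to 0.22 on the log2 scale, and their median was 0.036, beside -0.0013 over all tested probe sets. The median size of the difference, without regard to sign, was 0.059 for the complex I genes and 0.054 for all tested probe sets. The groups did not overlap at 11 of the 42 genes, 26.2%, near the background of 26.3%.

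Each interval covers the difference in deposited signal of a gene taken singly, and a shift common to all genes would not show in it. For the 32 subunit genes of the 2 arms, the 95% confidence intervals of the log2 difference lay between -0.32 and 0.20, which is a change of -19.7% to 14.8%. Without Ndufs4 the remaining 31 lay between -0.17 and 0.20. The 8 assembly factor genes had wider intervals, reaching from -0.29 to 0.34. Their mean signals were 8.32 to 10.09, and those of the 32 subunit genes 11.46 to 13.31. The median SD within genotype was 0.077 for the assembly factors and 0.045 for the 32 subunits, against 0.055 for all tested probe sets. Such signals reflect probe properties too and are not amounts of transcript.

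**Figure D1:**
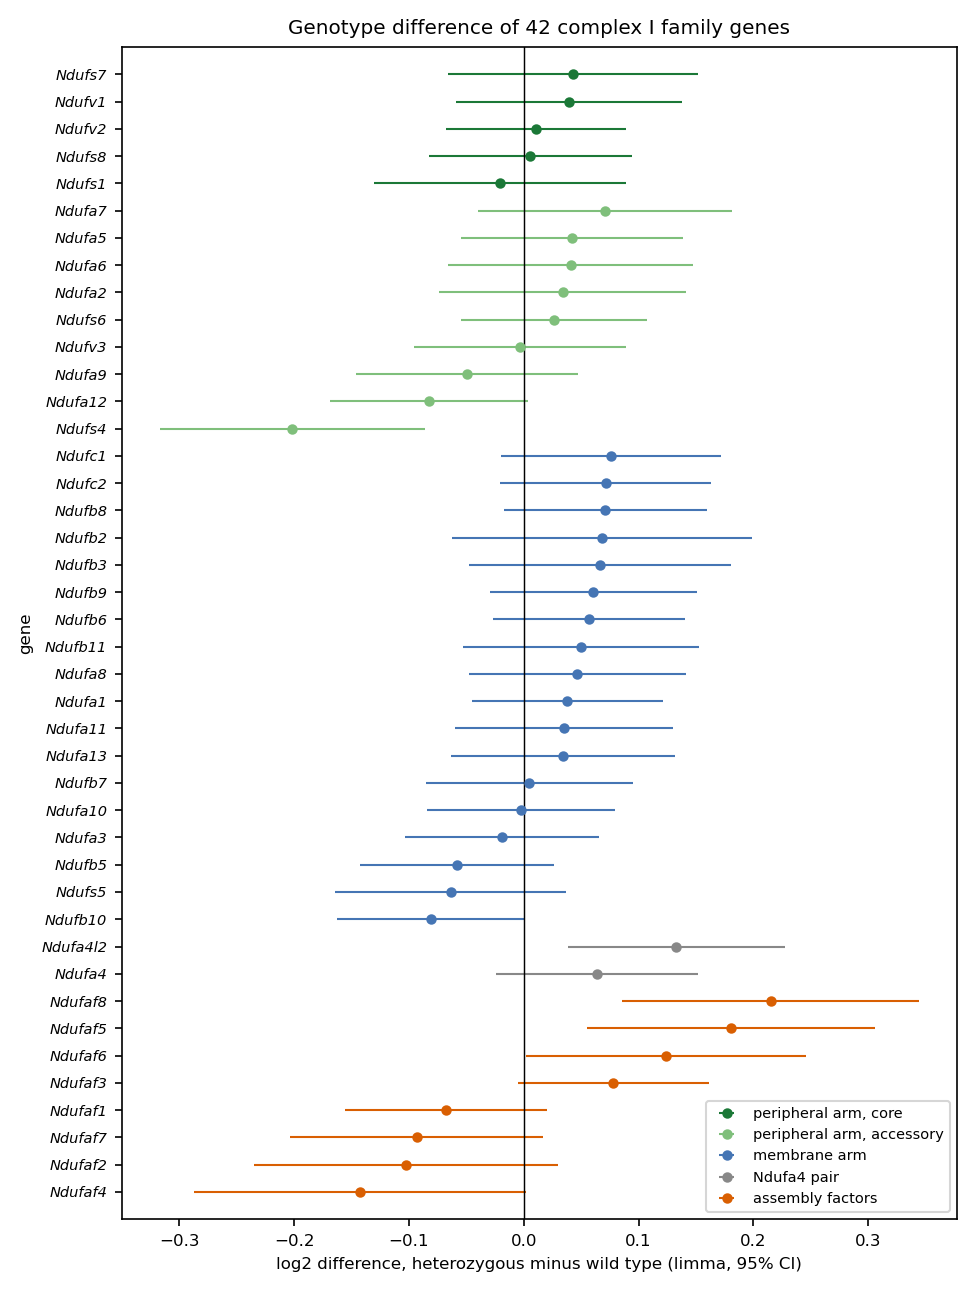
Log2 difference (heterozygous minus wild type, n = 3 mice each) of the 42 complex I family genes on the horizontal axis, with points for limma estimates and bars for 95% confidence intervals, ordered by role and then by difference. The 32 subunits of both arms lie close to 0 apart from Ndufs4 at -0.20, while the assembly factors spread from -0.14 to 0.22.

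The promoter sequence of 4 genes with large differences for this family is shown, since transcript levels were measured. RefSeq promoter windows (GRCm38.p6) were matched for 37 of the 42 genes, and the 250 bases before the start are given for Ndufs4 (chr13:114388095-114388344, reverse strand), Ndufaf8 (chr11:120098684-120098933, forward strand), Ndufaf5 (chr2:140170396-140170645, forward strand) and Ndufaf4 (chr4:24897833-24898082, forward strand), 5′ to 3′. Capitals mark a match to the motif of NRF1, a transcription factor of nuclear genes for mitochondrial proteins.
Ndufs4: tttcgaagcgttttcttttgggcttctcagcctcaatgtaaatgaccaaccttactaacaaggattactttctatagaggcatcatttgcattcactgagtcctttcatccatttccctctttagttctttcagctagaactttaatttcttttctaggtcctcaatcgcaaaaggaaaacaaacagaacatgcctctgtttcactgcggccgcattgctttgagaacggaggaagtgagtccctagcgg
Ndufaf8: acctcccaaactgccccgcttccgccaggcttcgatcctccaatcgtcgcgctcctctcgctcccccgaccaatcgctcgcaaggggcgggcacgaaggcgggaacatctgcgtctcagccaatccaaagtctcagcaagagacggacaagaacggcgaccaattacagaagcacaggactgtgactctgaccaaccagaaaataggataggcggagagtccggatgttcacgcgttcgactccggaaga
Ndufaf5: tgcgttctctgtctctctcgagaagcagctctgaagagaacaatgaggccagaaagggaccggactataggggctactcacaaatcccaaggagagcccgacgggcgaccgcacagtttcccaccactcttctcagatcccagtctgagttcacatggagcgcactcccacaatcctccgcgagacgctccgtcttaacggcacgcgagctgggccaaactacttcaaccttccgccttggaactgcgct
Ndufaf4: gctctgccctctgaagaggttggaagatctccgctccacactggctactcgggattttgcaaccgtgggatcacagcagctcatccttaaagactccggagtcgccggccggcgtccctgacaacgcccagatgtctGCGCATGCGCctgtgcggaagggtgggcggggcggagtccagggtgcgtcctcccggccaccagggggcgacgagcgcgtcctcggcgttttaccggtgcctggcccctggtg
Both strands were searched for 4 motifs: GCGCA and GCGC with any base between them (NRF1), TNAAGGTCA (ERR), AANATGGCG (YY1) and CCGGAAGTG (GABP). The NRF1 letters were found in 6 of 37 complex I windows, 16.2%, against 3.86% of 27025 windows of the same length. These 6 were Ndufa5, Ndufa8, Ndufa11, Ndufs5, Ndufs6 and Ndufaf4, whose log2 differences ran from -0.14 to 0.047. The YY1 letters were found in Ndufb11 alone (2.7% against 1.12%), and the ERR and GABP letters in none, with 1.14% and 1.45% over all windows. Ndufs4, Ndufaf8 and Ndufaf5 are among the 30 windows with none of these letters. The 27025 comparison windows were neither limited to tested genes nor matched for base composition. A match of letters is a description and not a bound site.

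Of the nuclear-encoded core subunits of the peripheral arm, 5 are described here, and none passed. Ndufv1, which binds NADH and flavin, measured 12.21, 12.10 and 12.12 in heterozygous mice, against 12.07, 12.14 and 12.10 in wild-type mice, a log2 difference of 0.039 with overlapping groups. Its partner in the NADH-oxidising tip, Ndufv2, had a difference of 0.011, and Ndufs1, the large iron-sulphur subunit, one of -0.020. Near the ubiquinone site, Ndufs7 differed by 0.043 and the iron-sulphur subunit Ndufs8 by 0.0058. The intervals of all 5 lay between -0.13 and 0.15 on the log2 scale. The sign of the difference changed when a mouse was left out for Ndufs1 and Ndufs8, Ndufs7 ran from 0.0075 (without heterozygous mouse 3) to 0.079 (without heterozygous mouse 1), and the groups of all 5 genes overlapped.

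Among the 9 accessory genes of the peripheral arm, Ndufs4 stood apart. Ndufs4 encodes a small subunit that joins late and holds the NADH-oxidising part in place, and its loss causes Leigh syndrome in people and a fatal brain disease in mice. It measured 11.45, 11.50 and 11.33 in heterozygous mice, against 11.67, 11.64 and 11.58 in wild-type mice. The groups did not overlap, with heterozygous mouse 3 the lowest of all. The difference on the log2 scale was -0.20 ± 0.05 (SE), a change of -13.1% with a 95% interval of -19.7% to -5.82%, and it had the smallest p of the 42 genes. It did not pass over all probe sets (limma, adjusted p = 0.0707), and passed with the replicate block (adjusted p = 0.0364). An exact permutation test over the 6 mice (two-sided) gave p = 0.1, the minimum for this design. Any gene whose groups do not overlap has this value, so it adds no support for Ndufs4.

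Ndufa12, which lies against the NADH-oxidising part, was the other accessory gene whose groups did not overlap. It measured 13.07, 13.01 and 12.99 in heterozygous mice, against 13.13, 13.08 and 13.10 in wild-type mice. The difference was -0.083 ± 0.038 (limma, adjusted p = 0.259), less than that of Ndufs4 in size. The other 7 accessory genes (Ndufa2, Ndufa5, Ndufa6, Ndufa7, Ndufa9, Ndufs6 and Ndufv3) had differences from -0.049 for Ndufa9 to 0.071 for Ndufa7, with overlapping groups. Over the 14 peripheral arm genes 9 differences were positive and the median was 0.019.

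The membrane arm was represented by 18 genes, of which none passed, 13 had positive differences and the median was 0.042. Ndufb10, a subunit of the distal part of this arm, measured 12.34, 12.39 and 12.33 in heterozygous mice, against 12.45, 12.42 and 12.44 in wild-type mice. All heterozygous values lay below all wild-type values, by a mean of -0.081 ± 0.036 (limma, adjusted p = 0.249). In the opposite direction, Ndufb8 measured 13.06, 13.07 and 13.09 in heterozygous mice, against 12.95, 13.01 and 13.04 in wild-type mice. The groups of Ndufb8 did not overlap, at a difference of 0.071 (adjusted p = 0.337); the encoded protein is often used as an antibody marker of assembled complex I.

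Ndufc1 and Ndufc2, small subunits of the same arm, had log2 differences of 0.076 and 0.071 (limma, adjusted p = 0.343 and 0.354). The groups also stayed apart for Ndufc2, for Ndufb9 (0.061) and for Ndufb5 (-0.058), which makes 5 of 18 with Ndufb10 and Ndufb8. That is near the background of 26.3% of all tested probe sets. The differences of the 18 genes ran from -0.081 to 0.076. The X-linked Ndufa1 and Ndufb11, which are essential for the arm, differed by 0.038 and 0.050. Ndufa13, also known as Grim19, differed by 0.034, and Ndufa10 by -0.0025; with 1 mouse left out the differences of Ndufa13 and Ndufa10 took either sign.

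Ndufa4 measured 13.50, 13.48 and 13.48 in heterozygous mice, against 13.38, 13.48 and 13.40 in wild-type mice, a difference of 0.064 (limma, adjusted p = 0.389). Heterozygous mice 2 and 3 and wild-type mouse 2 shared 1 identical value. Ndufa4l2, which is induced by hypoxia in several cell types, had a mean signal of 7.42. That was the lowest of the 42 genes and near the median of 7.23 over all entries of an array. It measured 7.47, 7.46 and 7.52 in heterozygous mice, against 7.33, 7.41 and 7.31 in wild-type mice, with no overlap. The difference was 0.13 ± 0.04 (SE), 9.63% higher with a 95% interval of 2.68% to 17.1%, and did not pass (limma, adjusted p = 0.121).

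The assembly factors held 5 of the 7 complex I genes whose log2 difference exceeded 0.1 in size; Ndufs4 and Ndufa4l2 were the others. Over all tested probe sets 24.8% exceeded that size, against 16.7% of the 42. The 8 assembly factors split evenly, with 4 positive and 4 negative differences, a median of 0.0052 and a median size of 0.11. None passed (limma), and 3 had an unadjusted p under 0.05: Ndufaf8, Ndufaf5 and Ndufaf6. Over all tested probe sets 20.5% had such a p. The median SD within genotype was 0.077 for the assembly factors, against 0.055 for all tested probe sets.

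Ndufaf8 and Ndufaf5 belong together: in human cells NDUFAF8 binds and stabilises NDUFAF5, an enzyme that hydroxylates an arginine of the core subunit NDUFS7. Ndufaf8 measured 10.07, 10.17 and 10.09 in heterozygous mice, against 9.93, 9.98 and 9.78 in wild-type mice. The groups did not overlap, and wild-type mouse 3 was the lowest. The log2 difference was 0.22 ± 0.06 (SE), 16.1% higher with a 95% interval of 6.14% to 27.0%, the largest in size of the 42 genes. It did not pass over all probe sets (limma, adjusted p = 0.0803) and passed with the replicate block (adjusted p = 0.0448).

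Ndufaf5 measured 9.41, 9.57 and 9.60 in heterozygous mice, against 9.29, 9.37 and 9.37 in wild-type mice. Heterozygous mouse 1 lay just above the wild-type mice and the other two heterozygous mice clearly above them. The difference was 0.18 ± 0.05 (SE), 13.3% higher, and did not pass (limma, adjusted p = 0.113, and 0.0520 with the replicate block). Without heterozygous mouse 1 it was 0.24 and passed (adjusted p = 0.0282). The transcript of their substrate, Ndufs7, had the difference of 0.043 given above.

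Ndufaf3 and Ndufaf4, which bind each other and act on the ubiquinone-binding module, had differences of opposite sign. Ndufaf3 measured 9.03, 9.03 and 8.98 in heterozygous mice, against 8.96, 8.90 and 8.93 in wild-type mice, a difference of 0.078 (limma, adjusted p = 0.268) with no overlap. Ndufaf4 measured 9.54, 9.69 and 9.71 in heterozygous mice, against 9.71, 9.77 and 9.90 in wild-type mice, a difference of -0.14 (adjusted p = 0.250). The groups of Ndufaf4 overlapped, since heterozygous mouse 3 lay just above wild-type mouse 1, and its difference was -0.088 without wild-type mouse 3.

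Ndufaf6, an early factor whose loss in people causes complex I deficiency, measured 10.04, 10.19 and 10.20 in heterozygous mice, against 10.08, 9.96 and 10.01 in wild-type mice. Its difference was 0.12 ± 0.05 (limma, adjusted p = 0.239), and heterozygous mouse 1 lay below wild-type mouse 1. Ndufaf2, a relative of Ndufa12 that precedes it on the growing enzyme, differed by -0.10 (adjusted p = 0.354), in the direction of Ndufa12, and by -0.056 to -0.16 when heterozygous mouse 3 or mouse 2 was left out. Ndufaf7, which is a methyltransferase, differed by -0.093 (adjusted p = 0.312), and by -0.049 without heterozygous mouse 3. Ndufaf1, a membrane arm factor that works with Ecsit and Acad9, differed by -0.068 (adjusted p = 0.360).

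**Figure D2:**
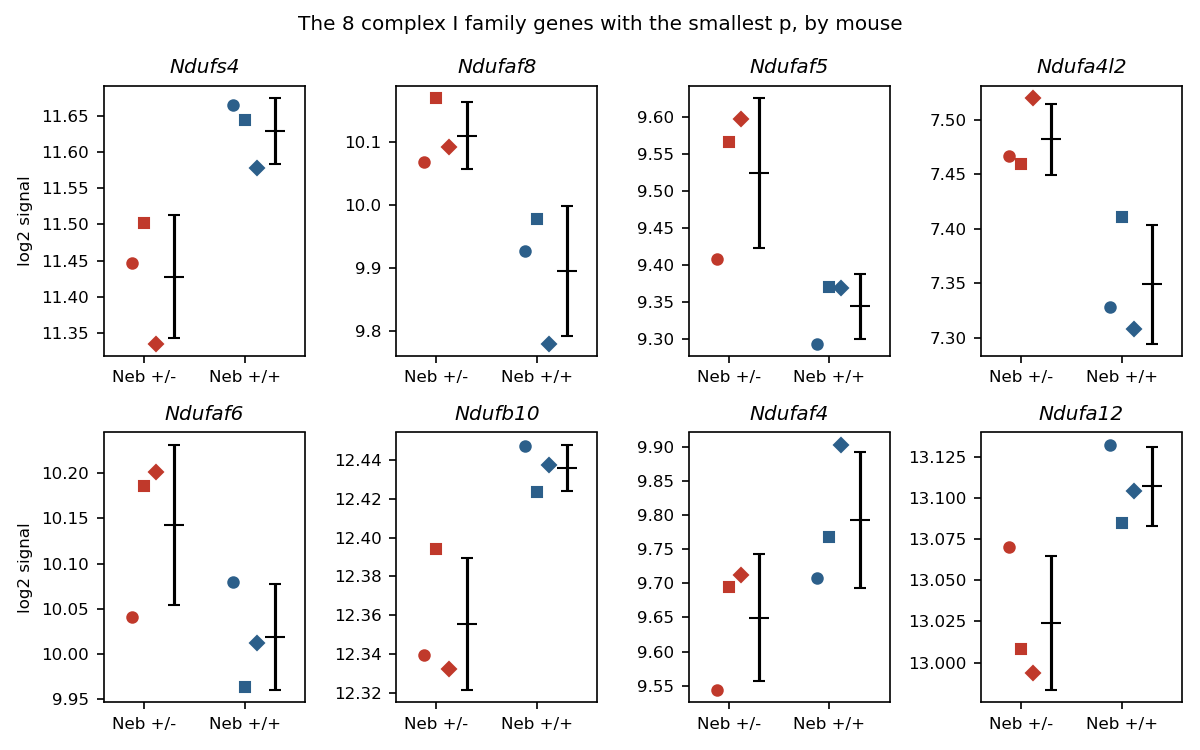
Log2 signal of the 8 complex I family genes with the smallest limma p, 1 panel per gene with its own vertical scale, heterozygous mice left of wild-type mice, symbols for mouse numbers (circle 1, square 2, diamond 3), and the bar for mean ± SD (n = 3). The groups do not overlap for Ndufs4, Ndufaf8, Ndufaf5, Ndufa4l2, Ndufb10 and Ndufa12, and they overlap for Ndufaf6 and Ndufaf4.

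A slight lean to positive differences was seen, at 28 of 42 genes, 66.7%, against 49.4% of all tested probe sets. Without heterozygous mouse 2 the median difference of the 42 genes was 0.016 in place of 0.036, and without wild-type mouse 1 it was 0.021. Heterozygous mouse 2 held the sole highest value at 18 of the 42 genes, while the other mice held between 2 and 8. It was also the most frequent sole highest over all tested probe sets, at 20.7%, with 12.1% to 18.8% for the others. Measured from each gene's mean over the 6 mice, the median deviation of the complex I genes was 0.043 in heterozygous mouse 2. It was -0.0073 in heterozygous mouse 1 and 0.00089 in heterozygous mouse 3, against -0.022, -0.0073 and -0.0081 in wild-type mice 1, 2 and 3. In the membrane arm this mouse was the sole highest at 11 of 18 genes, and in the peripheral arm at 5 of 14. Over all tested probe sets its median deviation was -0.00070. Wild-type mouse 1 was the sole lowest at 13 of the 42 genes, against 18.8% of all tested probe sets.

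**Figure D3:**
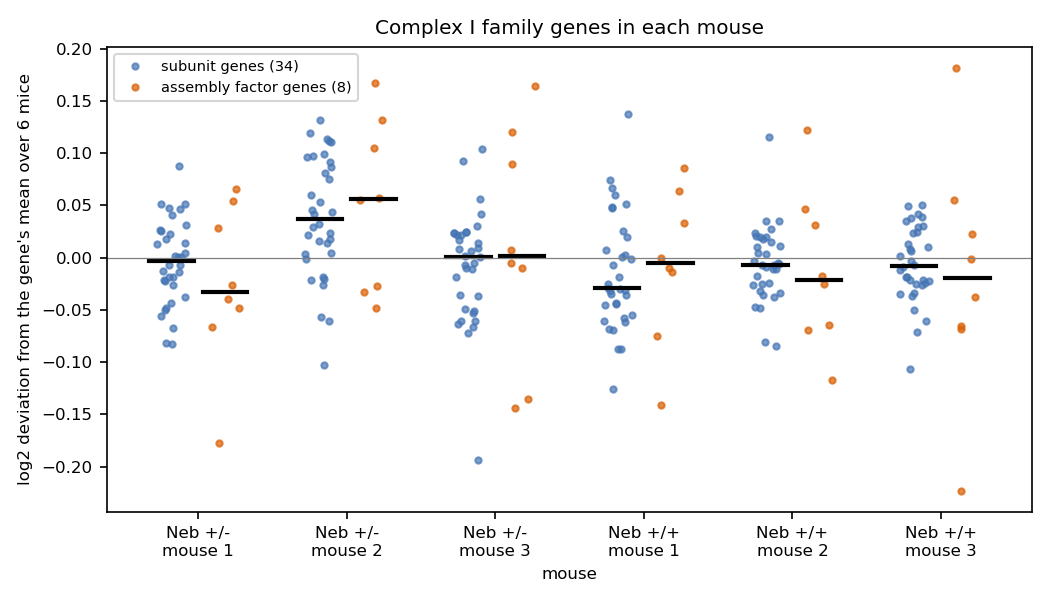
Log2 deviation of each complex I family gene from its mean over the 6 mice (vertical axis), by mouse, with heterozygous mice at the left, blue points for the 34 subunit genes, orange points for the 8 assembly factor genes and black bars for medians. The subunit median is highest in heterozygous mouse 2, at 0.037, and lowest in wild-type mouse 1, at -0.030.

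Genes that act on complex I without the Nduf symbol also gave no call, but showed no lean to positive differences. Of 15 further assembly factors listed, 12 were measured, none passed, 6 differences were positive and 6 negative, and the median was 0.0072. Aifm1, needed for import of complex I subunits, had the smallest p (log2 difference -0.16 ± 0.05, limma, adjusted p = 0.119), with 9.81, 9.65 and 9.74 in heterozygous mice, against 9.91, 9.84 and 9.94 in wild-type mice. Dmac1, a factor of the distal membrane arm, was next at 0.086 (adjusted p = 0.320), while Acad9 and Ecsit, partners of Ndufaf1, differed by -0.011 and 0.029. No row matched the 7 mitochondrially encoded subunits, so the mitochondrial share of the enzyme was not analysed here.

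The genes of complexes II to V, chosen by symbol, are the nearest comparison. Of 40 tested none passed (limma), and 10 had an unadjusted p under 0.05, against 20.5% of all tested probe sets. Positive differences numbered 29, against a share of 49.4% over all tested probe sets. The median of the 40 was 0.027, beside 0.036 for the 42 complex I genes. Heterozygous mouse 2 was the sole highest at 16 of these 40, with a median deviation of 0.033. The smallest p values were those of Sdhaf3 for complex II (log2 difference -0.17), Uqcrc1 for complex III (0.15), Cox6a1 for complex IV (0.19) and Atp5e for complex V (0.12), at adjusted p of 0.0839, 0.113, 0.103 and 0.174. The next smallest, in the same order of complexes, were those of Sdhc (0.12), Uqcrq (0.14), Cox5b (-0.13) and Atp5o (-0.090). The difference between complex I and these complexes was not tested.

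Among regulators of mitochondrial genes, 1 passed higher and 2 lower in the fit with all mice, and 4 did not pass. Of 7 tested, Ppara, a receptor for fatty acids, rose by 0.34 ± 0.07, and the coactivator genes Ppargc1b and Ppargc1a fell by 0.32 ± 0.05 and 0.30 ± 0.06 on the log2 scale (SE, n = 3 each; limma, adjusted p = 0.0356, 0.0267 and 0.0399). Ppara and Ppargc1b passed without heterozygous mouse 1 and both coactivators without wild-type mouse 2; with a mouse left out the adjusted p otherwise missed the threshold, reaching 0.113, 0.0872 and 0.127. Ppargc1a measured 9.71, 9.73 and 9.84 in heterozygous mice, against 10.13, 9.93 and 10.12 in wild-type mice. Tfam, Nrf1, Esrra and Gabpa did not pass, with differences of -0.065, -0.019, -0.029 and 0.014. As point estimates the coactivator falls exceeded in size the difference of any complex I gene, the largest being 0.22 for Ndufaf8 and -0.20 for Ndufs4. Their confidence intervals overlapped in size. They were -0.44 to -0.19 for Ppargc1b and -0.44 to -0.16 for Ppargc1a, against 0.086 to 0.34 for Ndufaf8 and -0.32 to -0.086 for Ndufs4. The contrast between coactivator and complex I genes was not tested.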

How the data were processed

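Quadriceps RNA, extracted by Trizol followed by a Qiagen kit, was hybridised as biotinylated cRNA to Affymetrix arrays, per the labels' protocols. The values deposited by the authors are log2 signals, and all sorted columns were equal, the pattern quantile normalization produces, so a global shift would be invisible. Ties follow from this: 18 of 42 complex I rows held an identical value in 2 or more mice, against 397 of 11544 probe sets. The labels name no summarisation software, background correction or genome build.

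Of 16556 entries 64 were controls and 16492 gene probe sets. Rows listed in the platform annotation were named by row name, read as an Entrez identifier, through the RefSeq table of GRCm38.p6 (15252 matched); other rows stayed unnamed. Tests used probe sets with a mean over all 6 arrays above the 30th percentile, 6.74, with limma 3.58.1 under R 4.3.3; the script was tested on simulated data. The members and gene lists were chosen with earlier results of these data known. The genes named are the 8 with the smallest p per direction, the core subunits described, the assembly factors, the Ndufa4 pair and 2 per further list; any other was picked after seeing its values.

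The labels number the mice 1 to 3 in both groups without saying what a number shares. Same-numbered mice deviated together (correlations of 0.187, 0.234 and 0.129, all over the limit of 0.1), so blocked values are given for complex I, marker and regulator genes where a call changes. Arrays of the same genotype correlated at 0.9965 to 0.9977, and a pair shared 25 to 56 identical values. The small number of arrays limits precision.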

Additional observations from a re-analysis of the deposited data

How the results depend on the processing

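The count of complex I genes past the threshold was 0 higher and 0 lower with no filter on dim probe sets, a filter at the 50th percentile, cyclic loess and eBayes with trend or robust. With the replicate block it was 1 higher (Ndufaf8) and 1 lower (Ndufs4), and with array weights 1 lower (Ndufs4, log2 difference -0.22, adjusted p = 0.0460). Leaving out a mouse gave 0 to 1 higher (Ndufaf5, without heterozygous mouse 1) and 0 lower, and a median difference of the 42 genes from 0.016 (without heterozygous mouse 2) to 0.049 (without heterozygous mouse 1). Over all probe sets, 177 rose and 182 fell; with the replicate block 262 rose and 310 fell, and leaving out a mouse gave 50 to 233 higher and 34 to 270 lower. The block changed no other complex I call.

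Of the 42 complex I genes, 33 kept their sign in all 13 alternatives, and 22 of these moved by over 1.5 times when some mouse was left out. The other 9 changed sign, none of them past the threshold, and the cause was not tested. With a mouse left out they ran from -0.019 to 0.0091 (Ndufa10), -0.00084 to 0.061 (Ndufa13), -0.0061 to 0.076 (Ndufa2), -0.041 to 0.00026 (Ndufa3), -0.0040 to 0.073 (Ndufa6), -0.015 to 0.036 (Ndufb7), -0.051 to 0.026 (Ndufs1), -0.013 to 0.032 (Ndufs8) and -0.027 to 0.022 (Ndufv3). With array weights Ndufa10 was 0.0013, Ndufb7 -0.0071 and Ndufs8 -0.0094. With a mouse left out, Ndufs4 ran from -0.24 to -0.16 (adjusted p 0.0876 to 0.190) and Ndufaf8 from 0.16 to 0.26 (0.0808 to 0.210).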
